A study of Mus musculus with 5 samples.

Results

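NELF-B peaks that overlapped no NELF-A peak by as much as 1 bp were a minority of NELF-B sites in mouse mammary epithelial cells. They numbered 294 of 3925 NELF-B peaks, or 7.49% (95% Wilson interval 6.71 to 8.36%), and the other 3631 NELF-B peaks overlapped NELF-A. The members were picked by comparing the NELF-B list with the NELF-A list, so the absence of NELF-A at them is the rule and not a finding. The 4 deposited peak lists, of NELF-B, NELF-A, RNA polymerase II (RNAPII) and R-loops, held 32456 peaks in all.

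Primary epithelial cells were taken from the thoracic and inguinal mammary glands of virgin mice of mixed strain, aged 6 to 8 weeks, and no genetic change or treatment is named for them. NELF-A and NELF-B were each mapped by ChIP-seq in 1 sample with a homemade antibody, from 0.2 ng of DNA and with 18 cycles of PCR. RNAPII (antibody ab5408) was mapped by ChIP-seq from 1 ng of DNA, and R-loops by DRIP-seq (antibody ENH001), both with 15 cycles. For RNAPII and for DRIP, 2 replicates are named in the title and 1 list was given for the pair. Another sample, DRIP-seq on RNase H treated DNA, was not analysed here. The lists name no genes, so the labelled cell type was not checked against marker genes.

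NELF, the negative elongation factor, is a complex of several subunits that holds RNAPII paused shortly after the start of transcription. NELF-A is a subunit that contacts the polymerase, and NELF-B, also known as COBRA1, is a structural subunit that was also described as a partner of the breast cancer protein BRCA1. The subunits are known to work together within the complex. R-loops are RNA-DNA hybrids with a displaced DNA strand, and DRIP-seq recovers them with an antibody against the hybrid.

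Each peak carries 1 whole number given by the authors, called its score here, which has no stated unit and was compared only within a list. Peaks lie on a grid of 250 bp, so widths and distances come in steps of 250 bp. Positions are in mm9, the build of the deposited files. No gene was assigned to a peak, because the gene table at hand is of GRCm38 and positions were not converted. There was 1 list per target and sequencing depth is unknown. The intervals below therefore cover counting error over peaks alone, with no spread between replicates and no p-value.

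NELF-B peaks without NELF-A were weak and short within their list. Their median score was 7, the lowest value in the NELF-B list, and the middle 50% of them scored from 7 to 8. The median was 10 for the other NELF-B peaks, with a middle 50% from 7 to 14. The lowest score was held by 216 members (73.5%) and by 909 other NELF-B peaks (25.03%). No member scored above 16, whereas 679 of the others (18.7%) did, and the highest of the others reached 1092. Members are thus crowded at the bottom of the list, although most NELF-B peaks at the bottom are not members. Members made up 19.2% of the 1125 NELF-B peaks of score 7, 10.8% of those of score 8, 4.10% of those of score 9 and 2.22% of those of score 10.

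Width followed the same pattern. Of the members, 268 (91.2%) were 500 bp wide, 14 were 750 bp, 9 were 250 bp and 3 were 1000 bp. Of the other NELF-B peaks, 44.0% were 500 bp wide, 33.5% were 750 bp, 14.1% were 1000 bp and 7.66% were wider still. Members of score 7 and 500 bp numbered 207. Score and width come from the list that the rule used, and a wide peak meets a NELF-A peak more easily than a short peak, so these values are a description without a test.

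**Figure D1:**
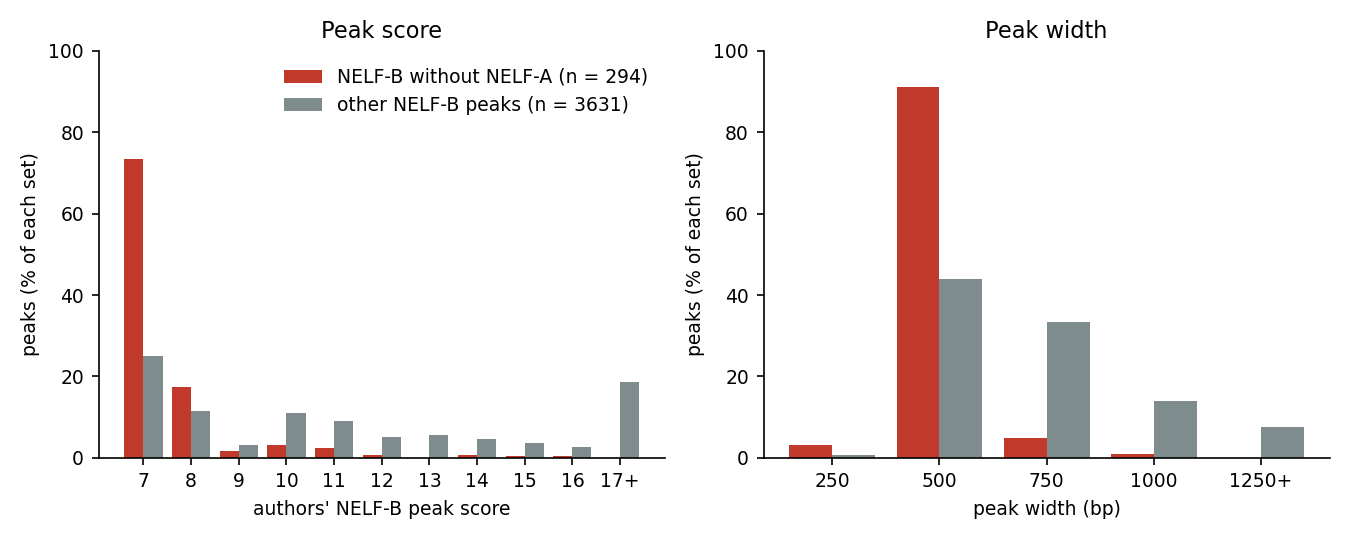
Percentage of NELF-B peaks at each authors' score (left) and width in bp (right), for the 294 peaks without NELF-A (red) and the 3631 other NELF-B peaks (grey). Score 7 holds 73.5% of the peaks without NELF-A and 25.03% of the others, and a width of 500 bp holds 91.2% and 44.0%.

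NELF-B peaks without NELF-A ranged from direct neighbours of a NELF-A peak to sites over 1 Mb away. The median number of free bases to the nearest NELF-A peak was 24000 bp (95% interval of the median 16750 to 36250 bp), and the middle 50% lay from 3562 to 133500 bp. This median changed with how peaks were chosen or sized. It was 875 bp with every peak taken as 500 bp around its centre, 12375 bp in the upper 50% of NELF-B by score, 46000 bp in the upper 50% of every list and 44250 bp for members over 1000 bp from NELF-A. Here and below, the upper 50% of a list means peaks at or above its median score. For NELF-B that is a score of 10 or more, and with ties it is more than 50% of the peaks. A NELF-A peak touched 21 members without a gap. A further 35 members lay 250 to 1000 bp away, 51 lay 1250 bp to 10 kb away, 108 lay over 10 and up to 100 kb away, and 79 lay over 100 kb away. Sites within 1000 bp of NELF-A, touching ones included, made up 56 members (19.05%). The farthest member was 3254250 bp from NELF-A, and 12 members were over 1 Mb away.

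The median score was 7, the lowest of the list, in each of these 5 distance classes. A score of 7 was held by 42 of the 56 members within 1000 bp of NELF-A and by 174 of the 238 members farther away (73.1%). The NELF-A peaks nearest to members had a median score of 19.5 for the 56 members within 1000 bp and of 26 for the 238 members farther away, against 24 over all 10782 NELF-A peaks. Of the members, 104 (35.4%) had as their nearest NELF-A peak a site that carried another NELF-B peak, a share that is 32.9% over all NELF-A peaks. For 167 members (56.8%) the nearest NELF-A peak lay on RNAPII, against 54.1% of all NELF-A peaks.

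**Figure D2:**
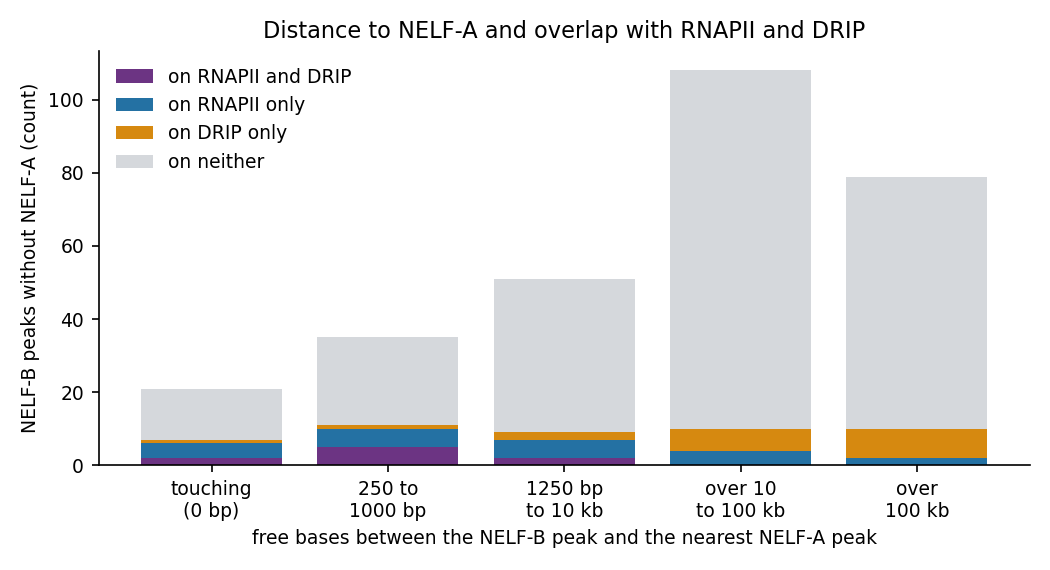
Number of NELF-B peaks without NELF-A in 5 classes of distance to the nearest NELF-A peak, in free bases between the peaks, with the bars divided by overlap with RNAPII and DRIP. Overlap with RNAPII was found at 16 of the 56 members within 1000 bp and at 2 of the 79 members over 100 kb away.

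The edge of the rule was described by its nearest peaks on either side. Outside it, 34 members touched NELF-A or lay 250 bp away, with scores from 7 to 12 and a median of 7. Inside it, 98 NELF-B peaks overlapped NELF-A by 250 bp, the smallest overlap in the list, and 28 of these were peaks of 250 bp that lay wholly on NELF-A. Their scores ran from 7 to 69, again with a median of 7. RNAPII overlapped 12 of the 34 members (35.3%) and 48 of the 98 peaks inside (49.0%), and DRIP overlapped 6 (17.6%) and 16 (16.3%). The highest-score member at the edge lay at chr7:31349001-31349750, with a score of 12 and 250 bp from a NELF-A peak of score 21. The next, at chr9:3024501-3025000 with a score of 10, touched a NELF-A peak of score 330 inside a DRIP peak of 39000 bp. Members at chr2:119698251-119698750 and chr19:7061751-7062250, each of score 9, touched NELF-A peaks of scores 11 and 9 and were on neither RNAPII nor DRIP. Inside the edge, the highest score, 69, was at chrX:139917501-139917750, where NELF-B and NELF-A were called with the same ends. The next inside were at chr9:110183751-110184000 with a score of 20, at chr8:25549251-25549750 and chr2:5300251-5300500 with 14 each, and at chr4:126698501-126698750 with 11, and 3 of these 4 lay on DRIP.

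RNAPII was rare at NELF-B peaks without NELF-A. It overlapped 29 of the 294 members, or 9.86% (6.96 to 13.8%), against 77.8% of all NELF-B peaks. Of the other 3631 NELF-B peaks, 3024 overlapped RNAPII, or 83.3% (82.0 to 84.5%). The odds ratio of members over the others was 0.0220 (95% Woolf interval 0.0148 to 0.0325), which is far from 1. RNAPII was not used to pick the members. NELF-A, which was, lay on RNAPII at 54.1% of its own peaks, and the part of this in the result was not tested.

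The difference in RNAPII overlap was also present among peaks of like score and width. With peaks pooled over classes of equal width and 3 classes of score per base (Mantel-Haenszel), the odds ratio was 0.0442 (0.0297 to 0.0659). Among peaks of score 7 and 500 bp, RNAPII overlapped 23 of 207 members (11.1%, 7.52 to 16.1%) and 610 of 897 other NELF-B peaks (68.0%, 64.9 to 71.0%), an odds ratio of 0.0588 (0.0373 to 0.0928). That matching was chosen after the data were seen. It moved the odds ratio by over 1.5 times, and the interval still excluded 1.

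**Figure D3:**
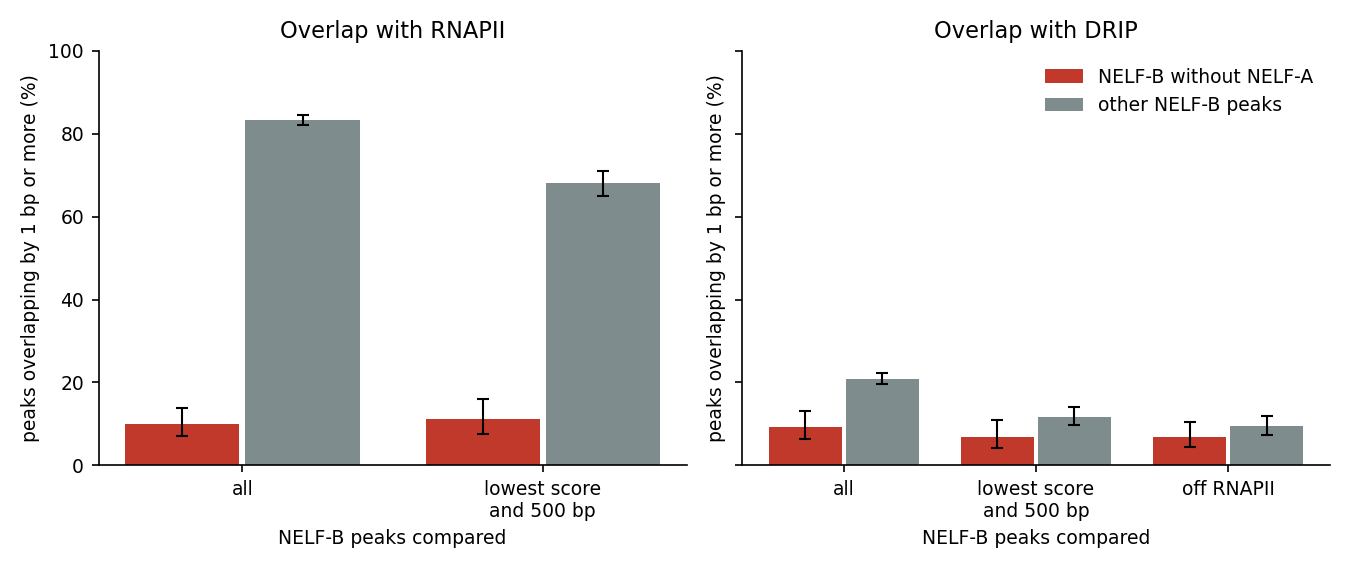
Percentage of NELF-B peaks that overlap RNAPII (left) and DRIP (right) by 1 bp or more, for peaks without NELF-A (red) and other NELF-B peaks (grey), with 95% Wilson intervals as bars. RNAPII overlap is 9.86% and 83.3% over all peaks and 11.1% and 68.0% among peaks of the lowest score and 500 bp, while the intervals for DRIP overlap each other off RNAPII.

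Members close to NELF-A carried RNAPII more often than distant members. RNAPII overlapped 16 of the 56 members within 1000 bp of NELF-A (28.6%, 18.4 to 41.5%) and 13 of the 238 members farther away (5.46%, 3.22 to 9.12%), an odds ratio of 6.92 (3.09 to 15.5). By distance class, RNAPII was found at 6 of 21 touching members, 10 of 35 at 250 to 1000 bp, 7 of 51 up to 10 kb, 4 of 108 up to 100 kb and 2 of 79 beyond. The members within 1000 bp of NELF-A thus stayed below the 83.3% of the other NELF-B peaks, a share over all scores. A score of 7 was held by 75% of these 56 members, and RNAPII overlapped 67.9% of the other NELF-B peaks of score 7. At the edge of the rule the shares were closer, 35.3% of 34 members and 49.0% of the 98 peaks inside.

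The 29 members on RNAPII lay on 28 RNAPII peaks, and 23 of them lay wholly inside the polymerase peak. For 17 of the 29, the RNAPII peak also held a NELF-A peak elsewhere along its length, and these members were at most 6500 bp from NELF-A. The RNAPII peaks of these 17 members were 2250 bp wide at the median and at least 1000 bp wide. The other 12 members lay on RNAPII peaks with no NELF-A at all, which were 1125 bp wide at the median and at most 3250 bp wide. Those 12 were between 750 and 877250 bp from the nearest NELF-A peak. A member overlaps no NELF-A peak, so an RNAPII peak that holds both must reach from 1 to the other. The shorter distances and wider RNAPII peaks of the 17 therefore follow in part from this split and are a description without a test. No share over all RNAPII peaks was set beside 17 of 29. DRIP overlapped 8 of the 17 and 1 of the 12, counts that were not tested for a difference.

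Among members on RNAPII, the highest score was 15, at chr19:9058751-9059750. This member of 1000 bp lay on an RNAPII peak of 3250 bp and score 997 that held no NELF-A, and 3500 bp from a NELF-A peak of score 58. It also lay on a DRIP peak of 500 bp and score 40, close to the lowest DRIP score, 38. The next, at chr10:80641501-80642250 with a score of 10, was 250 bp from a NELF-A peak of score 114, and both lay on an RNAPII peak of 4750 bp. The remaining members on RNAPII scored 7 or 8. A pair at chr6:108608751-108609250 and chr6:108611501-108612000 lay on either side of a NELF-A peak of score 65 at chr6:108609251-108611000. The member at chr16:94946501-94947000, of score 8, touched a NELF-A peak of score 15 on an RNAPII peak of 1000 bp and was 22750 bp from DRIP.

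Some members on RNAPII sat in long polymerase domains. A member of score 7 at chr7:19889251-19889750 lay in an RNAPII peak of 28500 bp, 3750 bp from NELF-A, and on a DRIP peak of 5250 bp. At chr3:95479001-95479500, a member of score 7 lay in an RNAPII peak of 25000 bp, 500 bp from NELF-A, and on a DRIP peak of 5500 bp. At chr10:66655501-66656000, a member of score 7 lay in an RNAPII peak of 27500 bp, 6500 bp from NELF-A and 3750 bp from DRIP. In all, 5 of the 29 members on RNAPII lay in RNAPII peaks of 5 kb or more. These 5 include 2 members that shared an RNAPII peak of 12750 bp, the pair at chr6:108608751-108609250 and chr6:108611501-108612000. No such share was counted for the other NELF-B peaks on RNAPII, so the count of 5 is a description without a test. The median RNAPII peak under a member was 1750 bp wide with a score of 474, against 1250 bp and 406 under the other NELF-B peaks on RNAPII.

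Members off RNAPII were often remote from it. Over all members the median distance to the nearest RNAPII peak was 46625 bp, with overlaps counted as 0, and over the other NELF-B peaks it was 0 bp. Of the members, 86 (29.3%) lay on RNAPII or within 10 kb of it, against 86.2% of the others, and 113 (38.4%) lay over 100 kb from it, against 5.34%. When only peaks off RNAPII are compared, 57 of 265 members (21.5%, 17.0 to 26.8%) and 106 of 607 others (17.5%, 14.7 to 20.7%) lay within 10 kb of RNAPII, an odds ratio of 1.30 (0.903 to 1.86) with an interval that includes 1. Over 100 kb from RNAPII lay 113 of the 265 members (42.6%) and 194 of the 607 others (32.0%), an odds ratio of 1.58 (1.18 to 2.13). Members off RNAPII thus lay over 100 kb from RNAPII more often than the other NELF-B peaks off RNAPII. The odds ratios were not matched for score or width. All of the others lie on NELF-A by the rule, and the part of this in the difference was not tested. Of the 79 members over 100 kb from NELF-A, 76 were also over 100 kb from RNAPII, and 55 of these were over 100 kb from any DRIP peak as well. The other NELF-B peaks overlap NELF-A by the rule, so none can be in this class. Over 100 kb from DRIP lay 40.8% of all members and 25.2% of the other NELF-B peaks.

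**Figure D4:**
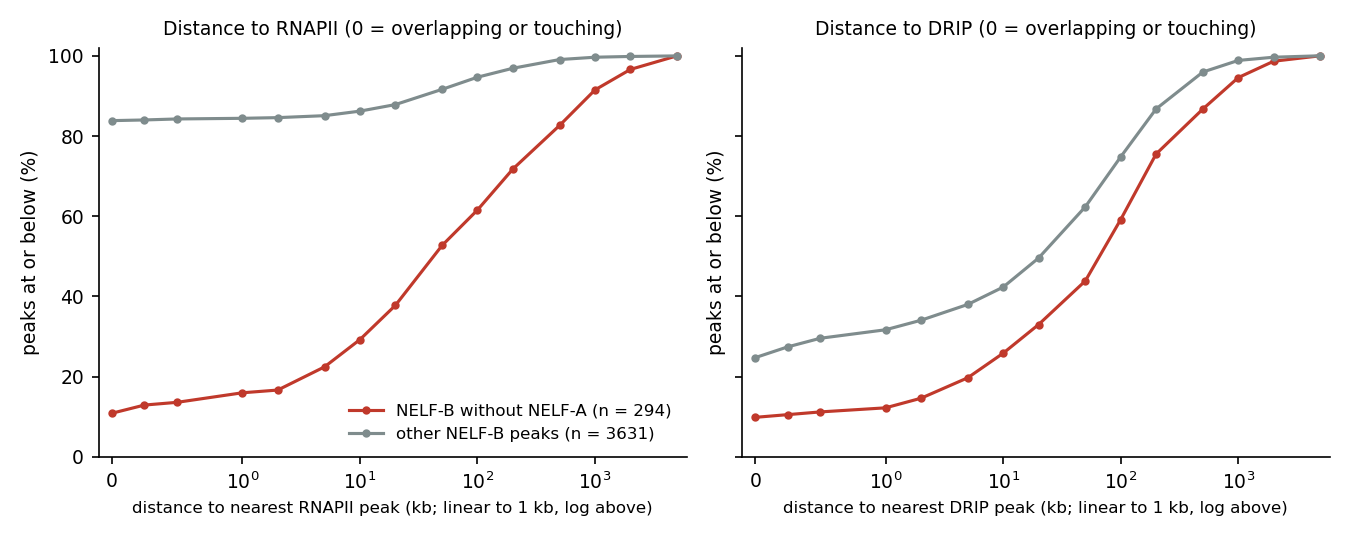
Cumulative percentage of NELF-B peaks by distance in kb to the nearest RNAPII peak (left) and DRIP peak (right), for the 294 peaks without NELF-A (red) and the 3631 other NELF-B peaks (grey), where 0 stands for overlapping or touching. Within 10 kb of RNAPII lie 29.3% of the peaks without NELF-A and 86.2% of the others, and within 10 kb of DRIP lie 25.9% and 42.3%.

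NELF-A peaks without NELF-B gave the mirror class, with 7235 peaks. RNAPII overlapped 9.86% of the NELF-B peaks without NELF-A and 39.7% (38.6 to 40.8%) of the NELF-A peaks without NELF-B, an odds ratio of 0.166 (0.113 to 0.245). The classes differ in how many of their peaks are weak within their list. At the lowest score and 500 bp were 207 of the 294 members and 1107 of the 7235 NELF-A peaks without NELF-B, a much smaller part. With each list restricted to its lowest score and to 500 bp, a choice made after the data were seen, RNAPII overlapped 11.1% of 207 NELF-B peaks without NELF-A and 18.2% (16.1 to 20.6%) of 1107 NELF-A peaks without NELF-B. The odds ratio was then 0.560 (0.354 to 0.887), much closer to 1 though still below it. The lists differ in length and in lowest score, 7 for NELF-B and 9 for NELF-A, so the comparison holds for these lists alone.

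DRIP overlapped 27 members, or 9.18% (6.39 to 13.0%), against 20.1% of all NELF-B peaks. The mirror class, NELF-A peaks without NELF-B, had a similar share, 625 of 7235 peaks or 8.64% (8.01 to 9.31%). The odds ratio of members over that class was 1.07 (0.714 to 1.60). With each list at its lowest score and 500 bp it was 1.075 (0.593 to 1.95), and both intervals contain 1. Of the other NELF-B peaks, 760 (20.9%, 19.6 to 22.3%) overlapped DRIP, and the odds ratio of members over the others was 0.382 (0.255 to 0.572). At equal width and score per base the pooled odds ratio was 0.702, and its interval, 0.462 to 1.07, contains 1. This pooled value changed with how peaks were counted. It was 0.486 (0.337 to 0.700) when DRIP and RNAPII peaks within 1000 bp counted, and 0.566 (0.344 to 0.932) for members over 1000 bp from NELF-A. It was above 1 in the upper 50% of NELF-B by score, at 2.51 (1.03 to 6.13), and with the central 500 bp of each peak, at 1.94 (1.42 to 2.65). The direction of the DRIP difference at equal width and score is therefore not settled by these lists. Among peaks of score 7 and 500 bp alone, DRIP overlapped 14 of 207 members (6.76%) and 105 of 897 others (11.7%), an odds ratio of 0.547 (0.306 to 0.977). The plain odds ratio also turned among the upper 50% of NELF-B peaks by score, to 1.55 (0.646 to 3.71), over 22 members. With the central 500 bp of each peak in place of the whole, which left 511 NELF-B peaks without NELF-A, it turned to 1.43 (1.07 to 1.92).

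DRIP was also compared apart from RNAPII. Off RNAPII, where DRIP overlapped 8.60% of all NELF-B peaks, it overlapped 18 of 265 members (6.79%, 4.34 to 10.5%) and 57 of 607 others (9.39%, 7.32 to 12.0%), an odds ratio of 0.703 (0.405 to 1.22). On RNAPII, it overlapped 9 of 29 members (31.0%, 17.3 to 49.2%) and 703 of 3024 others (23.2%, 21.8 to 24.8%), an odds ratio of 1.49 (0.674 to 3.28). Neither interval excludes 1, and neither excludes a difference of more than 1.5 times. In the upper 50% of every list by score, the odds ratio off RNAPII was 2.05 (1.18 to 3.55), with members above the others, so the value for the lists as deposited did not hold there. Among the members themselves, DRIP was more frequent on RNAPII than off it, with an odds ratio of 6.17 (2.46 to 15.5).

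Of the 294 members, 9 lay on both RNAPII and DRIP, 20 on RNAPII only, 18 on DRIP only and 247 (84.0%, 79.4 to 87.8%) on neither. Of the other NELF-B peaks, 19.4% lay on both, 63.9% on RNAPII only, 1.57% on DRIP only and 15.1% on neither. The prevailing kind of member was thus a NELF-B peak with no other target called on it, and the prevailing kind of other NELF-B peak held NELF-A and RNAPII. Of the 9 members on both, 7 were within 1000 bp of NELF-A, and the other 2 were 3500 and 3750 bp away. They included a member of score 8 at chr7:97592001-97592500, which touched a NELF-A peak of score 59 on an RNAPII peak of 1750 bp, with a DRIP peak of 2000 bp and score 173. At score 7, they included chr2:156548001-156548500, 750 bp from a NELF-A peak of score 71 on an RNAPII peak of 2250 bp, and chr3:142057501-142058000, 250 bp from a NELF-A peak of score 38 on an RNAPII peak of 2500 bp. The member at chr1:182334501-182335000, also of score 7, lay 250 bp from a NELF-A peak of the lowest score, 9, on an RNAPII peak of 3250 bp.

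Of the 18 members on DRIP only, 11 lay over 100 kb from any RNAPII peak, against 113 of all 265 members off RNAPII (42.6%). Over 100 kb from any NELF-A peak lay 8 of the 18, against 79 of all 294 members (26.9%). Neither difference was tested. Of the 4 members with scores from 14 to 16, 3 were on DRIP only and 1 on both DRIP and RNAPII. The DRIP share of the other NELF-B peaks with these scores was not computed. At score 10 to 16, DRIP overlapped 8 of 22 members (36.4%) and 17.7% of the other NELF-B peaks. The highest-score member, 16, was at chr9:24346251-24346750, on a DRIP peak of 1000 bp and score 165, 38000 bp from NELF-A and 608500 bp from RNAPII. At chr4:3017251-3018250, a member of score 14 lay on a DRIP peak of 2000 bp and score 246, 483500 bp from both NELF-A and RNAPII. This member starts before 3.5 Mb, where 32 of 40 other NELF-B peaks were also on DRIP. Another of score 14, at chr4:145742751-145743750, lay on a DRIP peak of 3250 bp and score 409, 905500 bp from both. On the same chromosome, a member of score 11 at chr4:146797501-146798250 lay on a DRIP peak of 750 bp and score 75, 424000 bp from NELF-A.

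DRIP overlap of the members was also laid out by score. Off RNAPII, DRIP overlapped 6 of 20 members of score 10 to 16 (30.0%, 14.5 to 51.9%), 3 of 52 of score 8 to 9 (5.77%, 1.98 to 15.6%) and 9 of 193 of score 7 (4.66%, 2.47 to 8.62%). In the other NELF-B peaks off RNAPII the shares were 10.5% (6.72 to 15.9%) of 172 at score 10 to 16, 4.07% (1.75 to 9.16%) of 123 at score 8 to 9 and 5.48% (3.40 to 8.71%) of 292 at score 7. These classes were chosen after the scores were seen, so the shares are a description. No odds ratio of members over the others was computed within a score class. The intervals of both sets overlapped in each class, which does not show that the shares are alike. The widest separation was at score 10 to 16, with 30.0% of members and 10.5% of the others. RNAPII overlap was low in members at every score, with 10.6% at score 7, 7.14% at score 8 to 9 and 9.09% at score 10 to 16, against 67.9%, 77.1% and 88.6% in the other NELF-B peaks.

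Other named members of score 11 or 12 were off both RNAPII and DRIP. At chr9:123841501-123842000, a member of score 12 lay 750 bp from a NELF-A peak of score 16 and 2000 bp from RNAPII. At chr4:134709751-134710500, a member of score 11 lay 750 bp from a NELF-A peak of score 9, the lowest score of that list. At chr5:108413501-108414250, a member of score 11 lay 1250 bp from a NELF-A peak of score 23 and 80000 bp from RNAPII. At chr9:102030001-102030500, a member of score 11 lay 225750 bp from NELF-A, 497500 bp from RNAPII and 592750 bp from DRIP. The most isolated of the named members was at chr15:22712001-22712750, with a score of 11 and 2630250 bp from NELF-A, 2593750 bp from RNAPII and 811250 bp from DRIP.

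Members were found on all 20 chromosomes that carry peaks, in numbers from 7 to 24. Their share of the NELF-B peaks of a chromosome had a median of 7.58% and ran from 5.05% on chromosome 7 (14 of 277, interval 3.03 to 8.30%) to 14.8% on the X chromosome (9 of 61, 7.96 to 25.7%). The interval of the X chromosome overlapped that of chromosome 7 only narrowly, and those of the autosomes overlapped each other. No member on the X chromosome lay on RNAPII, and 1 lay on DRIP. Another NELF-B peak lay within 10 kb of 61 members (20.7%) and of 548 of the others (15.1%). The nearest NELF-B peak was a member for 38 members (12.9%) and for 252 of the others (6.94%), where members are 7.49% of all NELF-B peaks. Within 1000 bp of any other NELF-B peak lay 20 members, a count that was not made for the others. Nearness to other peaks was not tested.

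**Figure D5:**
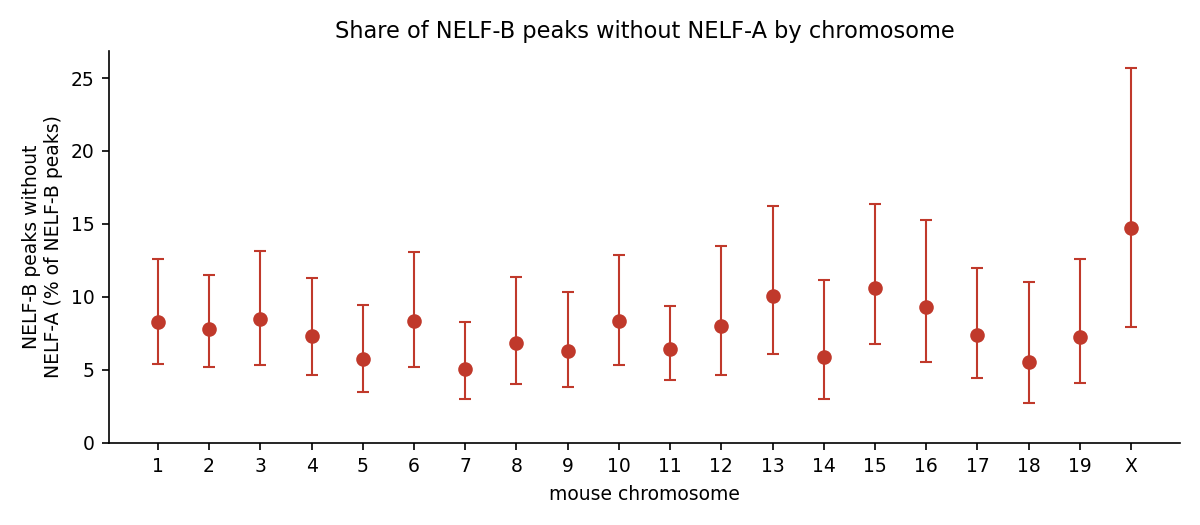
Share of the NELF-B peaks of each mouse chromosome that overlap no NELF-A peak, in percent, with 95% Wilson intervals as bars. Shares run from 5.05% on chromosome 7 to 14.8% on the X chromosome, which has 61 NELF-B peaks and the widest interval.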

How the data were processed

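BWA is named as the aligner and mm9 as the build, per the submitters' processing notes. For the peak caller, its threshold, any input control and the joining of replicates, nothing is given in the sources used here. The authors deposited 1 peak list per target with a score per peak, a whole number of no stated unit. Lists were read as deposited, in 1-based positions, with Python 3.11.15, pandas 2.3.3, NumPy 2.4.6 and SciPy 1.17.1. Overlaps of 1 bp or more and distances were computed per peak, tested on simulated peaks and checked against bedtools 2.31.1. Shares carry 95% Wilson intervals. Odds ratios carry Woolf intervals, and pooled ones are Mantel-Haenszel estimates with Robins-Breslow-Greenland intervals. Depth is unknown. With 1 list per target no test across samples was possible.

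Members, classes and comparisons were chosen with earlier results of these data known. Regions named were the members with the highest scores (ties by score per base), the widest, the highest on RNAPII, on DRIP, on both and over 100 kb from NELF-A, and peaks at the edge of the rule. Others named, in long RNAPII domains and in groups of members, were chosen after their values were seen. Alternatives changed the definition of a peak, a member and an overlap.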

Additional observations from a re-analysis of the deposited data

How the results depend on the processing

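Of 138 alternative values for 13 results, 106 kept their direction and call, stayed within the interval of the reported value or, for the number of members, within 1.5 times of it. In 8 the direction of an odds ratio for DRIP turned. The lower RNAPII overlap of members held in every alternative run, with odds ratios against the other NELF-B peaks from 0.00964 to 0.0991 and pooled ones from 0.0109 to 0.115. The number of members was 22 among the upper 50% of NELF-B by score, 141 among the upper 50% of every list and 511 with every peak 500 bp around its centre. Their share of NELF-B peaks was 6.15% with members over 1000 bp from NELF-A, and 0.997%, 6.39% and 13.0% in those 3 settings. Median score was 11 and median width 750 bp in both settings with the upper 50%. Median distance to NELF-A was 44250 bp with members over 1000 bp away, 12375 bp and 46000 bp in the upper 50% of NELF-B and of every list, and 875 bp at 500 bp. RNAPII overlap of members was 16.0% when peaks within 1000 bp counted, 5.46% for members over 1000 bp from NELF-A, 16.3% in the upper 50% of every list and 16.4% at 500 bp. DRIP overlap was 36.4% in the upper 50% of NELF-B and 19.9% in that of every list. The odds ratio for DRIP was 1.55, 0.759 and 1.43 in the upper 50% of NELF-B, of every list and at 500 bp. The pooled one was 0.486 when peaks within 1000 bp counted, 0.566 for members over 1000 bp from NELF-A, 2.51 in the upper 50% of NELF-B and 1.94 at 500 bp, each with an interval that excludes 1, and 1.25 (0.799 to 1.95) in the upper 50% of every list. The plain odds ratio off RNAPII was 2.05 (1.18 to 3.55) in the upper 50% of every list and 1.86 (0.668 to 5.16) in that of NELF-B. Pooled over exact width and exact score, the odds ratio off RNAPII was 1.30 (0.695 to 2.44). In the setting of 500 bp around the centre, wider peaks were cut and peaks of 250 bp were widened. The upper 50% holds fewer peaks, and the cause of the changes was not tested. Leaving out the X chromosome, the top 1% of NELF-B peaks by score per base or 17 regions of extra-high signal, which held 1 member, moved no result beyond its interval. No paired analysis was possible because each target has 1 list.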

Other observations

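Members that lay close together formed 14 groups linked at 50 kb or less, with 30 members in all, a grouping chosen after the data were seen. The other NELF-B peaks were not grouped in this way, so the count does not show that members cluster more. The median gap to the nearest NELF-B peak was 78125 bp for members and 75750 bp for the others. The largest, at chr12:116839751-116879250, held 4 members with scores of 7 and 8, none of them on RNAPII or DRIP. At chr4:146797501-146808250, 2 members with scores of 7 and 11 were both on DRIP and at least 414000 bp from NELF-A. At chr8:19944501-19983000, 2 members with scores of 7 and 8 were both on DRIP and at least 3603750 bp from RNAPII. Of the 30 members in groups, 7 were on DRIP (23.3%) and 4 on RNAPII (13.3%), against 9.18% and 9.86% of all 294 members, a difference that was not tested.

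The 4 members that start before 3.5 Mb on their chromosome were all on DRIP, as were 32 of the 40 other NELF-B peaks that start there. The members lay on chromosome 4 from 3017251, chromosome 9 from 3024501, chromosome 16 from 3241251 and chromosome 18 from 3009251, with scores of 14, 10, 7 and 8.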
